A study of Mus musculus with 23 samples.

Results

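The genes described here are 9 ATP-binding cassette (ABC) efflux transporters of the mouse liver, chosen by name out of 21056 genes tested on the array. *Abcb1a*, *Abcb1b*, *Abcb4*, *Abcb11*, *Abcc2* and *Abcg2* encode pumps of the canalicular membrane of hepatocytes (6 genes), and *Abcc3*, *Abcc4* and *Abcc6* encode pumps of the sinusoidal, blood-facing membrane (3 genes). The array carried 15 probes of these genes, and 13 of them, covering all 9 genes, passed the filter on dim signals. The other probes, 1 of *Abcb1a* and 1 of *Abcb1b*, were well above background on 4 and 0 of 23 arrays.

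Liver RNA was measured in male mice on the C57Bl6/J background, 1 array per mouse, to ask what pregnenolone 16α-carbonitrile (PCN), a rodent ligand of the nuclear receptor PXR, did in the presence and absence of that receptor. Wild-type mice (WT) were bought at 6 weeks of age and acclimatized for 2 weeks, while *Pxr*-/- mice, backcrossed to the same background, came from a colony kept in the facility for 10 years, and their age was not given in the sources used here. Mice were injected intraperitoneally each day for 4 days with corn oil alone (WT CONT, n = 6, and *Pxr*-/- CONT, n = 6) or with PCN at 100 mg/kg in corn oil (WT PCN, n = 5, and *Pxr*-/- PCN, n = 6). These are the livers analysed here. The methods of the study name 6 WT PCN mice, and the labels name 5 WT PCN arrays, all of which were used. Livers were taken at ZT6, which was 6 h after the final dose. Genotype and colony of origin cannot be told apart.

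Bile is formed at the canalicular membrane, where ABC pumps move bile acids, phospholipid and conjugated drugs out of the hepatocyte, while sinusoidal pumps return conjugates to the blood. PXR binds DNA together with RXR at pairs of short hexamer motifs near its targets, and drug-metabolizing enzymes and transporters are its best known targets. In rodents the single human drug pump ABCB1 is represented by the paralogs *Abcb1a* and *Abcb1b*.

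Well above background probes numbered 29510 to 33321 per array, and signals of any pair of arrays correlated between 0.9774 and 0.9965 over all tested probes. The log2 of the summed signal of 8 hepatocyte markers lay between 19.93 and 20.23 in all 23 livers. The probe of *Nr1i2*, the gene of PXR, did not separate the genotypes (11.47 ± 0.55 in WT CONT and 11.44 ± 0.80 in *Pxr*-/- CONT, SD, n = 6 each), and whether it lies in the deleted stretch was not given in the sources used here. The PXR target *Cyp3a11* rose from 13.62 ± 0.42 to 17.16 ± 0.16 with PCN in WT mice and stood at 14.31 ± 0.52 and 14.62 ± 0.37 without and with PCN in *Pxr*-/- mice. *Cyp2c55*, another target, rose by 6.26 in WT mice (adjusted p = 4.89e-14), and without PCN it was higher in *Pxr*-/- than in WT livers (2.80, adjusted p = 1.53e-07).

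Because *Abcb1a*, *Abcb1b* and *Abcb4* lie next to each other on chromosome 5 and gave different responses, the 250 bases before their start sites are shown, from RefSeq promoters of build GRCm38.p6. Promoter entries were found for 7 of the 9 genes, and *Abcc3* and *Abcc6* were not among them. Capitals mark the nuclear receptor hexamers AGGTCA or AGTTCA on either strand (TGACCT or TGAACT when read from the other strand). The windows are chr5:8566841-8567090, chr5:8797897-8798146 and chr5:8893471-8893720, all on the plus strand.
*Abcb1a*: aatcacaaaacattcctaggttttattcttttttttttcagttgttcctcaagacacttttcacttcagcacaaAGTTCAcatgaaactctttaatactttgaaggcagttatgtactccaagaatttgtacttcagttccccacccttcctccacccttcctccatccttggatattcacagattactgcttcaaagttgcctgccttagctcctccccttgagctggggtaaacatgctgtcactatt
*Abcb1b*: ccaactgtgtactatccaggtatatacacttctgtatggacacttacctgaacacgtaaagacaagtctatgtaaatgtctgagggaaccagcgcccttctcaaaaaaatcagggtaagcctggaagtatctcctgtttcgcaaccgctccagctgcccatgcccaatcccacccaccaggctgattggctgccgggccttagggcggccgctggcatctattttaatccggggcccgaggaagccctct
*Abcb4*: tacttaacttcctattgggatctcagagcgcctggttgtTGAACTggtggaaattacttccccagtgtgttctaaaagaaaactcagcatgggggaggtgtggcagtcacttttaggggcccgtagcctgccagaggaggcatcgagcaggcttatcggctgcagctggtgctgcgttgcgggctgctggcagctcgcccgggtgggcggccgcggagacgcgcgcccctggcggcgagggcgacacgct
Counted from the start site, *Abcb1a* held 1 hexamer, at -176, *Abcb4* held 1 on the other strand, at -211, and *Abcb1b* held 0. Of 32851 promoters of 300 bases (250 before and 50 after the start), 27.7% held at least 1 of the 2 hexamers. A hexamer in these windows is a match of letters and nothing more. In the order of RefSeq genes on this chromosome the stretch reads *Slc25a40*, *Rundc3b*, *Abcb1a*, *Abcb1b*, *Abcb4*, *Crot*, *Tmem243*.

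The opening bases of the array probes that carried the results are given next, to show which stretch of each paralog was measured. Probes had 60 bases, of which the first 30 are shown, and positions follow the array's own annotation, which uses build mm9 (no gene annotation of that build was used here, so exons and UTRs are not given).
*Abcb1a*, chr5:8748075-8748134: actcagacatgggcacctgagttcagatcc
*Abcb1b*, chr5:8865925-8865984: tccaggctggagcaaagcgctcatgagctg
*Abcb4*, chr5:8959108-8959167: agctgctggcgcagaagggcatctatttct
*Abcc3*, chr11:94204612-94204671: aacagagaccctgtactggtgctgtctgag
The probes were not compared with the transcripts of the other paralogs, so binding of a neighbour's RNA was not tested.

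PCN changed 3 of the 9 genes in WT mice: *Abcb1a* and *Abcc3* rose and *Abcb4* fell. To be called a gene needed a limma adjusted p no higher than 0.05 and a change of more than 1.5-fold, which 6.18% of all genes tested met in this comparison (3.79% higher and 2.39% lower). At any fold, 6 of 9 passed the adjusted p, as did 24.1% of all genes. PCN changed 1 of 9 in *Pxr*-/- mice, *Abcb4*, which fell there too, against 2.28% of all genes (0.86% lower). The response to PCN differed between the genotypes for *Abcb1a* and *Abcc3*, so 2 of 9 were called where the background was 1.05% (0.807% for a larger response in WT). Without PCN, 0 of 9 were called between genotypes by limma, with a background of 0.309%. At an unadjusted p below 0.05 there were 3, a cut at which the share of all genes was not computed. Called and uncalled genes stood on both membranes.

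**Figure D1:**
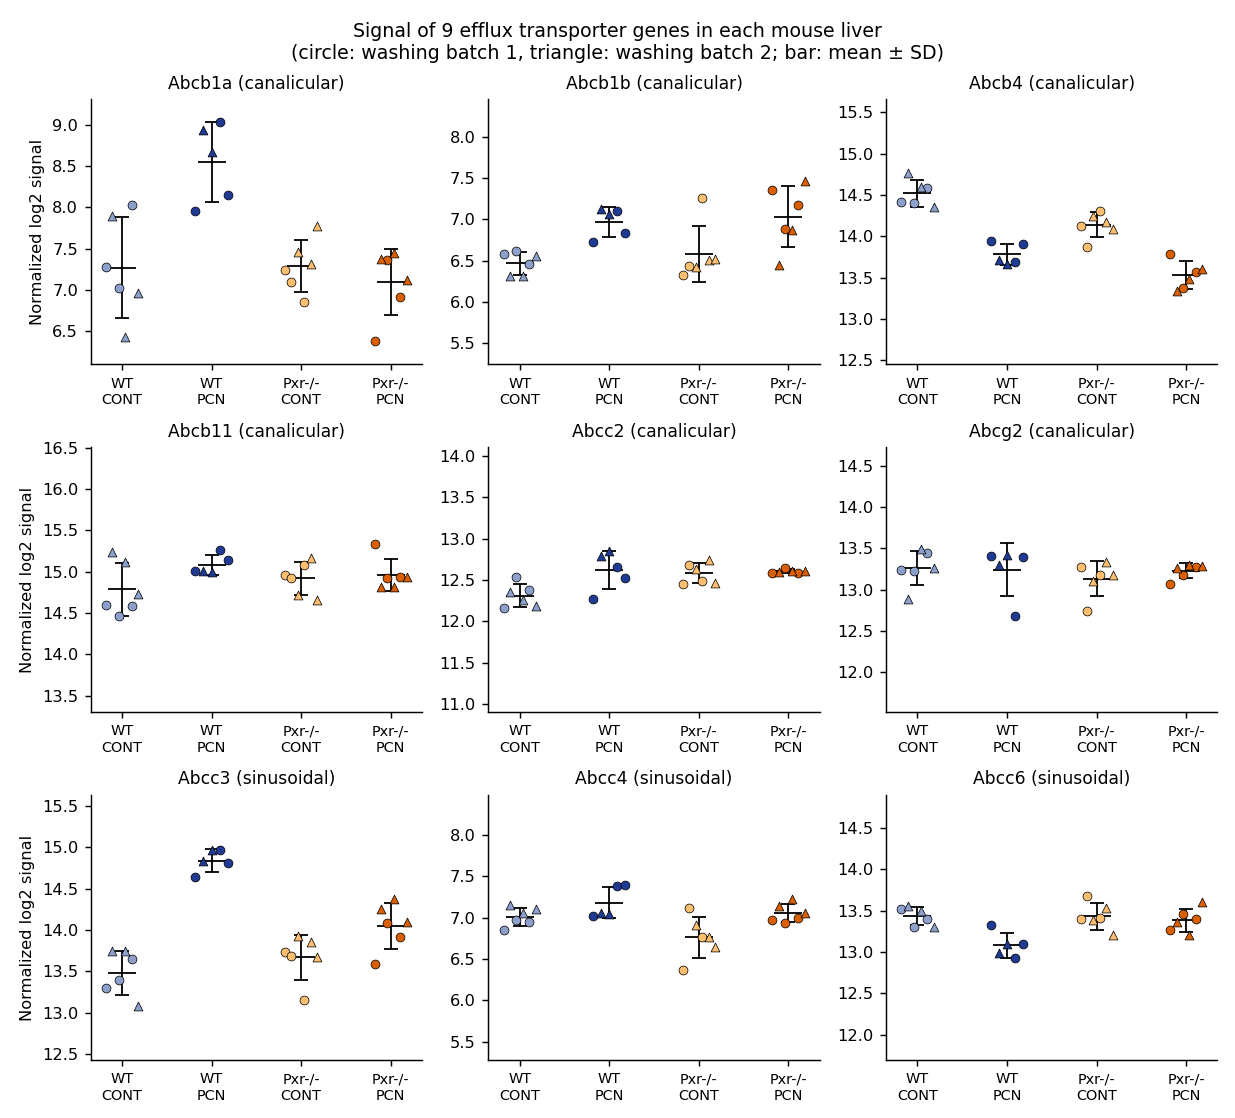
Normalized log2 signal of each transporter gene in each of the 23 livers, by group (WT CONT, WT PCN, Pxr-/- CONT, Pxr-/- PCN); circles are washing batch 1, triangles washing batch 2, and bars give mean ± SD. All panels span the same range of log2 units, the 5 WT PCN livers stand above every WT CONT liver for Abcc3 and below every one for Abcb4, and for Abcb1a the lowest of them, 7.95, lies under the highest WT CONT value, 8.03.

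*Abcb1a*, which encodes one of the paired drug pumps known as P-glycoprotein, read 7.95, 8.94, 8.67, 9.03 and 8.15 in the 5 WT PCN livers on the normalized log2 scale. In WT CONT livers it ran from 6.43 to 8.03 with a median of 7.15. The groups overlapped by 1 WT PCN liver, the lowest, and the WT CONT livers were spread widely (7.27 ± 0.61, SD, n = 6, against 8.55 ± 0.48, n = 5). The rise was 1.30 ± 0.25 (SE) on the log2 scale, or 2.46-fold (95% interval 0.77 to 1.83 in log2, adjusted p = 0.000941), and it ranked 210 of 21056 genes by size. Within the washing batches it was 0.93 and 1.70, and the first alone was not called (adjusted p = 0.0859).

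*Abcb1a* ran in *Pxr*-/- mice from 6.86 to 7.77 (median 7.28) without PCN and from 6.38 to 7.45 (median 7.24) with it. The ranges overlapped, and the change was -0.19 ± 0.24 (SE, adjusted p = 0.711). The response in WT mice exceeded that in *Pxr*-/- mice by 1.49 ± 0.35 on the log2 scale (95% interval 0.76 to 2.22, adjusted p = 0.032), with 1.11 and 1.90 within the batches. This call was near its threshold: it was lost when any of 11 single livers was left out, namely *Pxr*-/- CONT 1, 3, 5 and 6, *Pxr*-/- PCN 1, 5 and 6, WT CONT 3 and 6, and WT PCN 2 and 4. With each of these left out alone the difference was between 1.34 and 1.51, with adjusted p from 0.0503 to 0.0827.

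Of the PCN-treated livers, every *Pxr*-/- liver lay below every WT liver for *Abcb1a*. The difference, *Pxr*-/- minus WT, was -1.47 ± 0.25 (SE, adjusted p = 0.00112), a comparison that shares the WT PCN arrays with the response in WT mice. In controls it was 0.02 ± 0.24 (adjusted p = 0.985), and the batches gave -0.38 and 0.42. By mean level the order was WT PCN, then *Pxr*-/- CONT (7.29 ± 0.31), WT CONT and *Pxr*-/- PCN (7.10 ± 0.40), and the last 3 did not differ beyond their spread.

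*Abcb1b*, the other rodent P-glycoprotein gene, read 6.73, 7.13, 7.07, 7.10 and 6.83 in WT PCN livers against 6.31 to 6.62 (median 6.51) in WT CONT. The groups did not overlap, which held for 3 members (*Abcb1b*, *Abcb4* and *Abcc3*) and for 12.4% of all genes. The difference of 0.49 ± 0.16 (SE, adjusted p = 0.0314) stayed under the 1.5-fold limit, at 1.40-fold. It passed that limit and was called on the authors' normalized values (0.62, adjusted p = 0.0144) and on the scanner's processed signal (0.66, adjusted p = 0.0255). The median change of all genes was 0.12 on the authors' values and -0.02 on the processed signal. The *Pxr*-/- difference was 0.45 ± 0.15 (adjusted p = 0.0801), from a range of 6.33 to 7.26 without PCN to one of 6.45 to 7.46 with it.

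A single liver, *Pxr*-/- CONT 4, stood at 7.26 for *Abcb1b* while the others of its group lay between 6.33 and 6.52. Without it the difference in *Pxr*-/- mice was 0.59 (adjusted p = 0.0131) and was called. The responses of *Abcb1b* in the 2 genotypes differed by 0.04, with a 95% interval of -0.42 to 0.50, so a difference as large as that of *Abcb1a*, 1.49, lay outside the interval. The *Abcb1a* and *Abcb1b* signals showed a correlation of -0.162 over the 23 livers once group means were removed.

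*Abcb4* encodes the floppase that brings phosphatidylcholine into bile. It read 13.94, 13.71, 13.66, 13.69 and 13.91 in WT PCN livers, and from 14.36 to 14.77 (median 14.50) in WT CONT. Its range in *Pxr*-/- mice went from 13.87 to 14.31 (median 14.15) without PCN and from 13.34 to 13.79 (median 13.52) with PCN. In each genotype every PCN-treated liver lay below every control liver, which 3.15% of all genes did in either direction in *Pxr*-/- mice.

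The change of *Abcb4* with PCN was -0.74 ± 0.10 (SE) in WT mice (adjusted p = 1.76e-05, a 1.67-fold fall) and -0.61 ± 0.09 in *Pxr*-/- mice (adjusted p = 0.000832, 1.53-fold). The 2 responses differed by -0.13, with a 95% interval of -0.40 to 0.15 (adjusted p = 0.722). The batches gave -0.62 and -0.89 in WT mice and -0.52 and -0.70 in *Pxr*-/- mice. Because 1.53-fold is close to the limit, the *Pxr*-/- call was lost without *Pxr*-/- CONT 4, *Pxr*-/- PCN 2 or *Pxr*-/- PCN 3, at -0.57 to -0.58, while the adjusted p stayed between 0.00171 and 0.00348. On the authors' normalized values both falls were under the limit, at -0.50 in WT (adjusted p = 0.00219) and -0.57 in *Pxr*-/- mice (adjusted p = 0.00388). The medians of all genes on those values were 0.12 and 0.03.

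The 3 *Abcb4* probes, which lie apart along the gene, gave -0.74, -0.64 and -0.72 in WT mice and -0.61, -0.69 and -0.71 in *Pxr*-/- mice, and all were called in both. Without PCN, *Abcb4* was the only member for which the genotypes did not overlap, a state shared by 0.836% of all genes. The difference, *Pxr*-/- CONT minus WT CONT, was -0.38 ± 0.09 (SE, adjusted p = 0.0709) and was not called. On the authors' normalized values it was -0.47 (adjusted p = 0.0388), and *Pxr*-/- PCN minus WT PCN was -0.54 (adjusted p = 0.00149). Both were under 1.5-fold, and the medians of all genes on those values were -0.11 and -0.19. By mean level the order was WT CONT (14.52 ± 0.16), *Pxr*-/- CONT (14.14 ± 0.15), WT PCN (13.78 ± 0.13) and *Pxr*-/- PCN (13.53 ± 0.17), and the neighbours below WT CONT overlapped in pairs (for *Pxr*-/- PCN minus WT PCN, -0.25 ± 0.10, adjusted p = 0.108).

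**Figure D2:**
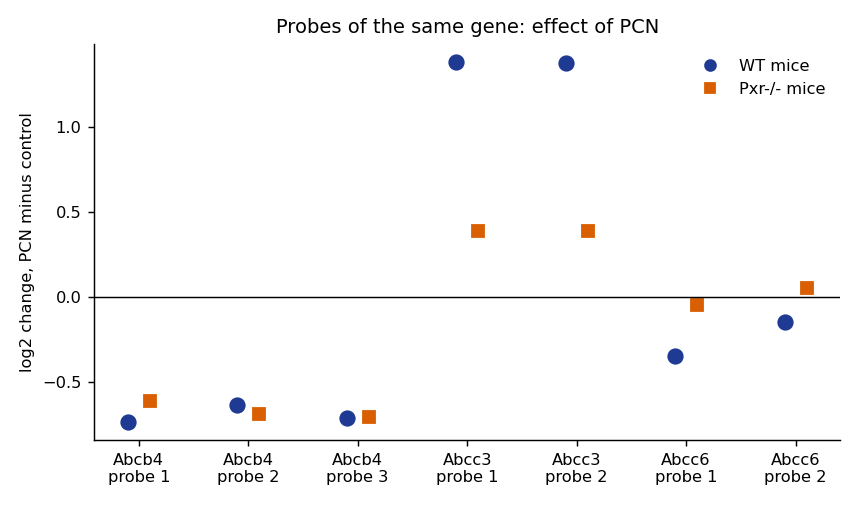
log2 change (PCN minus control) of each tested probe of the 3 genes with more than 1 tested probe, circles for WT mice and squares for Pxr-/- mice. The 3 Abcb4 probes lie between -0.74 and -0.61 in both genotypes, both Abcc3 probes stand at 1.38 in WT and 0.39 in Pxr-/- mice, and the Abcc6 probes stand at -0.35 and -0.15 in WT mice.

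*Abcb11*, the bile salt export pump, had a median of 15.01 and a highest value of 15.26 in WT PCN livers, and ran from 14.47 to 15.24 (median 14.66) in WT CONT. The ranges overlapped, and the difference of 0.29 ± 0.13 (SE) was not called (adjusted p = 0.118). It was 0.59 in the first washing batch, where it was called on its own (adjusted p = 0.0104), and -0.03 in the second. On the authors' normalized values it was 0.55 with adjusted p = 0.00899, still under 1.5-fold. The *Pxr*-/- difference was 0.04 ± 0.13 (95% interval -0.22 to 0.30).

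*Abcc2*, which exports glutathione and glucuronide conjugates into bile, read 12.27, 12.79, 12.85, 12.66 and 12.52 in WT PCN livers and 12.16 to 12.54 (median 12.31) in WT CONT. The ranges overlapped, with the difference at 0.31 ± 0.09 (SE, adjusted p = 0.015, 1.24-fold), under the limit. In *Pxr*-/- mice it was 0.03 ± 0.08, from a range of 12.45 to 12.74 (median 12.56) without PCN to one of 12.59 to 12.65 in the 6 *Pxr*-/- PCN livers. On the signal normalized here, *Pxr*-/- CONT livers were thus already near the WT PCN level. *Pxr*-/- minus WT was 0.26 ± 0.08 (SE, adjusted p = 0.228) without PCN and -0.02 ± 0.09 (adjusted p = 0.936) with it. The genotypes' responses differed by 0.28 (95% interval 0.02 to 0.53, adjusted p = 0.294). Within the batches the WT difference was 0.12 and 0.55 (adjusted p = 0.568 and 0.0232). On the authors' normalized values it was 0.48 (adjusted p = 0.00624), and *Pxr*-/- minus WT without PCN was 0.13 (adjusted p = 0.532). The medians of all genes on those values were 0.12 and -0.11.

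*Abcg2*, a pump of sulfated compounds, urate and porphyrins, had mean levels between 13.13 and 13.26 in all 4 groups. PCN gave -0.01 ± 0.13 (SE, 95% interval -0.27 to 0.25) in WT and 0.09 ± 0.12 (-0.15 to 0.34) in *Pxr*-/- mice, so changes beyond 1.5-fold lay outside both intervals. The WT PCN livers read 13.40, 13.30, 13.42, 12.68 and 13.39, 1 of them well under the other 4.

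At the sinusoidal membrane, *Abcc3* was the one called gene of the 3. It encodes the pump that returns glucuronides and bile acids to the blood. It read 14.64, 14.84, 14.97, 14.97 and 14.81 in WT PCN livers and 13.08 to 13.75 (median 13.52) in WT CONT. The groups were separated by a gap wider than the spread of either.

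*Abcc3* rose by 1.38 ± 0.13 (SE) on the log2 scale, 2.60-fold, in WT mice (95% interval 1.11 to 1.65, adjusted p = 2.88e-07). It ranked 180 of 21056 genes by size, and the batches gave 1.36 and 1.38. A second probe, whose first bases were tctctgaaacggatccaggatttcctgaac, lay at chr11:94225685-94225744 and gave 1.38 as well (adjusted p = 1.26e-05).

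*Abcc3* ran in *Pxr*-/- mice from 13.15 to 13.93 (median 13.70) without PCN and from 13.59 to 14.38 (median 14.10) with it. The ranges overlapped, and the difference of 0.39 ± 0.12 (SE, 95% interval 0.13 to 0.65) missed the threshold with adjusted p = 0.0656. On the authors' normalized values it was 0.43 with adjusted p = 0.0471, still under 1.5-fold. The WT response was larger by 0.99 ± 0.18 (95% interval 0.62 to 1.37, 1.99-fold, adjusted p = 0.00366), and the call held with each of the 23 livers left out in turn. Within the batches the difference was 1.02 and 0.95, and neither batch alone passed the threshold (adjusted p = 0.122 and 0.137).

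With PCN, every *Pxr*-/- liver lay below every WT liver for *Abcc3*, and the difference was -0.81 ± 0.13 (SE, adjusted p = 0.000578). *Abcb1a* and *Abcc3* were the 2 members called in this comparison, where 2.09% of all genes were called (1.36% lower) and 6.88% did not overlap. By mean level the order was WT PCN (14.84 ± 0.14), *Pxr*-/- PCN (14.05 ± 0.28), *Pxr*-/- CONT (13.67 ± 0.27) and WT CONT (13.48 ± 0.27), and neighbours among the last 3 overlapped.

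Cholangiocytes, the cells that line bile ducts, are present in whole liver. Of 8 cholangiocyte markers 6 were tested, their median change with PCN was 0.57 in WT and 0.61 in *Pxr*-/- mice, and 4 of 6 and 5 of 6 were above 0. The log2 of their summed signal ran from 10.70 to 12.28 in WT CONT, 11.80 to 13.00 in WT PCN, 10.99 to 11.81 in *Pxr*-/- CONT and 11.29 to 12.57 in *Pxr*-/- PCN livers. *Cftr* did not pass the filter, and *Sox9* was called in WT mice (0.76, adjusted p = 0.0109) and was lower in *Pxr*-/- than in WT livers under PCN (-0.76, adjusted p = 0.0279). In *Pxr*-/- mice *Sox9* changed by 0.62 (adjusted p = 0.0607), and the responses differed by 0.14 (adjusted p = 0.883). Without PCN the genotypes differed by -0.62 for *Sox9* (adjusted p = 0.214), which was not called. Of 8 stellate cell markers, only *Col1a1*, a collagen chain, was called with PCN, in WT (3.17, adjusted p = 2.33e-05) and *Pxr*-/- mice (1.96, adjusted p = 0.00628). The median change of the 8 was 0.09 in each genotype, with 5 above and 3 below 0 in WT and 8 above 0 in *Pxr*-/- mice. Of the 8 hepatocyte markers, only *Apoa1* was called with PCN, in *Pxr*-/- mice (0.62, adjusted p = 0.000955). Their median change was -0.04 in WT and 0.03 in *Pxr*-/- mice. Under PCN only *Tat* was called between genotypes, higher in *Pxr*-/- livers (0.73, adjusted p = 0.0436), where the median of the 8 was 0.22. Without PCN the difference for *Tat* was 0.38 (adjusted p = 0.504). Of 8 endothelial and 8 Kupffer cell markers, 0 were called with PCN in either genotype. The endothelial medians were -0.10 in WT and 0.19 in *Pxr*-/- mice, with 3 and 8 of the 8 above 0. The Kupffer medians were 0.19 and 0.28, with 7 and 8 of the 8 above 0. The part of any of these cells in the transporter results was not tested, and in whole tissue fewer or more cells of a type and less or more RNA per cell cannot be told apart.

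*Abcc4*, a sinusoidal pump of cyclic nucleotides and sulfated bile acids, read 7.02, 7.06, 7.04, 7.38 and 7.39 in WT PCN livers and 6.85 to 7.15 in WT CONT. The difference was 0.17 ± 0.11 (SE, adjusted p = 0.262) in WT mice, with 0.34 and -0.05 in the batches, and 0.29 ± 0.10 (adjusted p = 0.0818) in *Pxr*-/- mice. Neither was called.

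*Abcc6*, whose product drives release of ATP from hepatocytes into the blood, read 13.32, 12.99, 13.10, 12.92 and 13.09 in WT PCN livers and 13.30 to 13.55 (median 13.45) in WT CONT. Only the highest WT PCN liver reached the WT CONT range. The difference of -0.35 ± 0.09 (SE, adjusted p = 0.00723, 1.27-fold) was under the fold limit, and in *Pxr*-/- mice it was -0.05 ± 0.08 (adjusted p = 0.783). On the authors' normalized values the WT difference was -0.15 and did not pass the adjusted p (0.309). A second *Abcc6* probe gave -0.15 in WT mice with adjusted p = 0.276, so the probes of this gene disagreed on the adjusted p, and neither was called. Under PCN, *Pxr*-/- minus WT was 0.30 ± 0.09 (SE, adjusted p = 0.0407), and the second probe gave 0.33 (adjusted p = 0.0397), both under the fold limit. On the authors' normalized values that difference was 0.03 (adjusted p = 0.862).

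**Figure D3:**
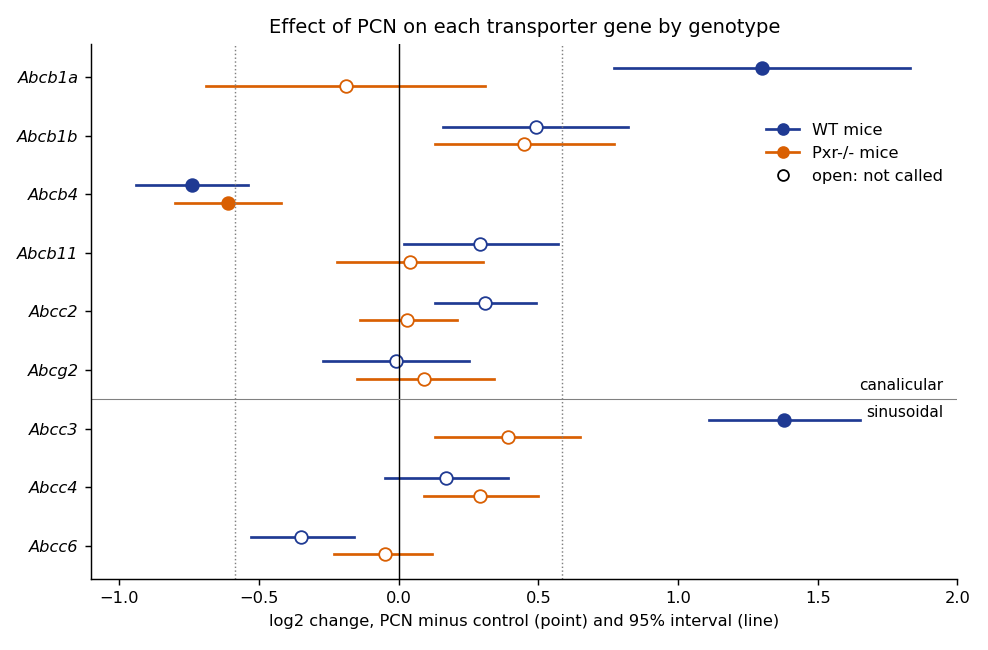
log2 change with PCN (point) and its 95% interval (line) for each transporter gene in WT and Pxr-/- mice, canalicular genes above the horizontal line and sinusoidal genes below it; filled points were called and dotted lines mark 1.5-fold. Abcb1a (1.30) and Abcc3 (1.38) stand apart from their Pxr-/- values, while the Abcb4 points at -0.74 and -0.61 have overlapping intervals.

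Set side by side, the 6 canalicular genes had a median change of 0.30 with PCN in WT mice, from -0.74 to 1.30, and the 3 sinusoidal genes 0.17, from -0.35 to 1.38. The median of all genes was -0.02. In *Pxr*-/- mice the medians were 0.04 and 0.29, against -0.01 for all genes. Both membranes held 1 gene called higher in WT mice, and the canalicular membrane alone held a called fall. With so few genes on each side these figures are a description of the genes named.

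Other genes of bile and drug export are given by list, beside the shares of all genes called above. Of 11 tested exporters outside the 9, among them the sterol pumps *Abcg5* and *Abcg8*, 0 were called by limma in either genotype's response to PCN. At an unadjusted p below 0.05 there were 5 in WT and 5 in *Pxr*-/- mice, and the share of all genes at that cut was not computed. *Slc51b*, a subunit of the basolateral bile acid carrier OST, was lower in *Pxr*-/- PCN than in WT PCN livers (-0.91, adjusted p = 0.03), on a probe well above background on 21 of 23 arrays. Without PCN the difference for *Slc51b* was -0.53 (adjusted p = 0.412). The 34 other ABC genes tested include the ABC genes of the exporter list above. Of the 34, only *Abcg4* was called with PCN in WT mice (0.73, adjusted p = 0.00712) and only *Abca8a* in *Pxr*-/- mice (0.60, adjusted p = 0.00716), both higher. In the other genotype they changed by -0.18 and -0.08 (adjusted p = 0.62 and 0.718). Neither difference in response was called (0.91 and -0.68, adjusted p = 0.0858 and 0.0688). Between genotypes under PCN, 2 of the 34 were called lower in *Pxr*-/- livers, *Abcd2* (-1.67, adjusted p = 0.0248) and *Abcg4* (-0.71, adjusted p = 0.0228).

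Among 8 genes that anchor or deliver pumps to the canalicular membrane, *Mal2*, which serves transcytosis to that membrane, rose in WT mice (0.61, adjusted p = 0.00303). It was lower in *Pxr*-/- than in WT livers under PCN (-0.77, adjusted p = 0.00174). In *Pxr*-/- mice *Mal2* changed by 0.08 (adjusted p = 0.776), and the difference in response was not called (0.53, adjusted p = 0.192). *Ezr*, the cytoskeletal linker ezrin, rose in *Pxr*-/- mice (0.83, adjusted p = 0.0184). In WT mice *Ezr* changed by 0.40 (adjusted p = 0.188), and the difference in response was not called (-0.42, adjusted p = 0.556). *Myo5b*, a motor of recycling endosomes, was called in the difference between genotypes alone (0.66, adjusted p = 0.00456). The other 5 were called in none of these comparisons.

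Of 9 transcriptional regulators of the pumps, *Nr0b2* (SHP, a repressor induced by bile acids) fell by 1.03 in WT mice (adjusted p = 0.0296). In *Pxr*-/- mice *Nr0b2* changed by -0.57 (adjusted p = 0.316), and the difference in response was not called (-0.46, adjusted p = 0.709). *Nr1i3* (the receptor CAR) and *Ahr* (the dioxin receptor) rose with PCN in *Pxr*-/- mice by 0.97 and 0.92 (adjusted p = 0.00531 and 0.00376). In WT mice they changed by -0.30 and 0.43 (adjusted p = 0.315 and 0.0964). For *Ahr* the difference in response was not called (-0.49, adjusted p = 0.383). The responses of *Nr1i3* and of *Nr1h4* (the bile acid receptor FXR) differed between genotypes, by -1.27 and -0.62, WT minus *Pxr*-/- (adjusted p = 0.0213 for each). Under PCN *Nr1i3* was higher in *Pxr*-/- than in WT livers (0.86, adjusted p = 0.0125).

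The genes whose signal was most like that of *Abcc3* over the 23 arrays, after removal of the washing batch, were *Cyp2b10* (r = 0.946), *Gstm4* (0.943) and *Cyp2b9* (0.942), which are drug-metabolizing enzymes. For *Abcb1a* they were *Nmt2* (r = 0.880), *Pusl1* (0.868) and *Mllt11* (0.858). These are descriptions over arrays that share group, batch and normalization. Once group means were also removed, correlations between pairs of members ran from -0.598 (*Abcb1b* and *Abcc3*) to 0.543 (*Abcb4* and *Abcb11*). The next lowest was -0.564 (*Abcg2* and *Abcc4*) and the next highest 0.509 (*Abcb1a* and *Abcc3*).

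**Figure D4:**
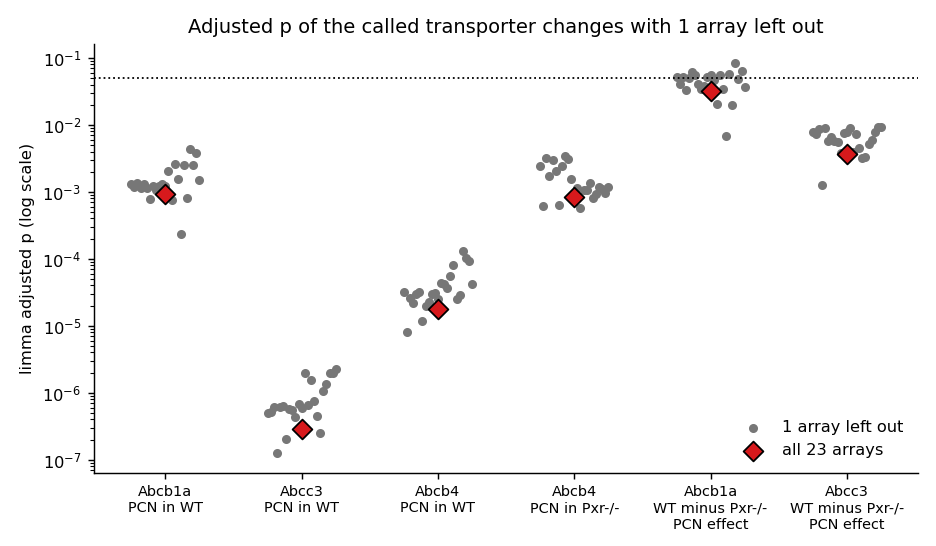
limma adjusted p on a log scale for the called transporter changes, with all 23 arrays (diamond) and with each array left out in turn (grey points); the dotted line is 0.05. For the difference in PCN response between genotypes, the Abcb1a points lie on both sides of the line, from 0.00693 to 0.0827, and all Abcc3 points lie below it.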

How the data were processed

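Per the file headers, the deposited scanner files are Agilent Feature Extraction 10.10.1.1 output and give each spot's brightness as a linear intensity that has not been made comparable between arrays. The authors also deposited normalized log2 values of 32574 probes for the same arrays (98.1% also tested here, column medians 7.54 to 8.01), made from the median signal with correction for washing batch and the CrossNorm method. Here the log2 median signal was used, without background subtraction. Outlier spots (2225) were removed and spots averaged to 56605 probes. A probe was kept if it exceeded background clearly on over 50% of arrays in any group (32087 probes), and kept probes were quantile normalized. The brightest kept probe, by mean signal, stood for each gene.

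limma 3.58.1 in R 4.3.3 (data.table version 1.17.8 for reading) was run on 23 arrays in 1 fit with 4 groups and 2 washing batches (18 residual degrees of freedom). P-values were adjusted by Benjamini-Hochberg over all probes tested. Levels are mean ± SD, changes are fitted values ± SE, and the number of arrays limits precision. Code was tested on simulated data. Groups, replicate numbers and batches came from the labels. Each batch held 3 arrays per group (2 for WT PCN in the second). Replicates are single mice.

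Named genes were the 9 members, other listed genes where called in a comparison, and the 3 most alike genes of members called in the difference between genotypes. Members and lists were chosen with earlier results of these data known. Alternatives covered signal column, background correction, scaling, filter, probe choice, threshold, batch, slide, replicate block, samples in the fit, the deposited values and leaving out each array.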

Additional observations from a re-analysis of the deposited data

Results flagged for a closer look

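Some livers stood far from the others of their group. *Abcb1b* read 7.26 in *Pxr*-/- CONT 4 against 6.33 to 6.52 in the rest, and *Abcc3* read 13.15 in the same liver against 13.67 to 13.93. *Abcb11* read 15.34 in *Pxr*-/- PCN 1 against 14.82 to 14.94, and *Abcg2* read 12.68 in WT PCN 4 against 13.30 to 13.42. Chance alone gives such a value in about 1 in 20 groups, and 36 groups were examined.

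The response to PCN differed between genotypes, by limma's test of the difference itself, for *Abcb1a* (1.49 larger in WT on the log2 scale, adjusted p = 0.032) and for *Abcc3* (0.99 larger, adjusted p = 0.00366).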

How the results depend on the processing

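Of the 9 genes, 3 were called for PCN in WT mice and stayed 3 whichever array was left out, and 6 passed with no fold limit. The genes changed with the setting: the processed signal gave 4, adding *Abcb1b*, the deposited values gave 3, with *Abcb1b* in place of *Abcb4*, and batch 1 alone gave 3, with *Abcb11* in place of *Abcb1a*. In *Pxr*-/- mice the 1 call became 0 on the deposited values and in washing batch 1 alone, and 0 to 1 with 1 array left out (0 without *Pxr*-/- PCN 2 or 3). For the difference between genotypes the 2 calls became 1 with no filter on dim probes, 0 in either batch alone, and 1 to 2 with 1 array left out. The 2 calls between genotypes under PCN became 0 in batch 2 alone and stayed 2 with 1 array left out. Between genotypes without PCN the count was 0 throughout.

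With replicate number as a block, the difference between genotypes kept 1 call, *Abcc3*, and *Abcb1a* had adjusted p = 0.0612. The sources used here name no pairing of mice with the same number. Of 33 same-numbered pairs of deviations, 13 correlated above 0.1 (range -0.17 to 0.611, median 0.003), and 8 of 23 arrays correlated best with their own number. No chance level was computed for these counts, so they do not settle whether the numbers carry a pairing. *Abcc2* between genotypes under PCN turned to 0.0061 with the block.

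Signs turned only in changes that were not called. In WT mice *Abcg2* was 0.0558 on the processed signal, 0.0452 with percentile scaling, 0.186 on the deposited values and 0.15 in batch 2, where *Abcb11* was -0.0315 and *Abcc4* -0.0518. In *Pxr*-/- mice *Abcc2* was -0.0058 (processed signal) and -0.0049 (batch 2), and *Abcc6* 0.0189 (batch 2). The difference between genotypes in response was -0.13 for *Abcb1b* and 0.12 for *Abcc4* in batch 1, -0.0402 for *Abcb11* and 0.0727 for *Abcg2* in batch 2, 0.0324 for *Abcb4* on the processed signal, and 0.073 for *Abcb4* and 0.0508 for *Abcg2* on the deposited values. Between genotypes without PCN, *Abcb1a* was -0.0266 (processed signal), -0.0153 (normexp), -0.10 (deposited) and -0.38 (batch 1), *Abcb11* was -0.18 (batch 2), and *Abcc6* was -0.11 (deposited) and -0.0777 (batch 2). Under PCN, *Abcb1b* was -0.11 (deposited) and -0.18 (batch 2), *Abcc4* 0.0906 (batch 2), and *Abcc2* 0.12 and *Abcg2* 0.0156 (batch 1). The causes were not tested.

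With 1 array left out, signs turned for *Abcg2* in WT mice (-0.0936 to 0.12), *Abcb11* in *Pxr*-/- mice (-0.0374 to 0.095), *Abcb1b* (-0.088 to 0.13) and *Abcg2* (-0.19 to 0.0263) in the difference in response, *Abcb1a* (-0.18 to 0.20), *Abcb1b* (-0.0287 to 0.17) and *Abcc6* (-0.0408 to 0.051) between genotypes without PCN, and *Abcb1b* (-0.0303 to 0.17), *Abcc2* (-0.0964 to 0.0376) and *Abcg2* (-0.15 to 0.0277) under PCN.

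On the deposited values the median change of all genes was 0.12 for PCN in WT mice, against -0.02 on the signal normalized here. Between genotypes it was -0.11 against 0 without PCN and -0.19 against 0.01 with PCN, where 1095 genes were called against 441. The share of calls that were higher moved from 61.3 to 84.3% for PCN in WT, 62.4 to 73.6% in *Pxr*-/- mice, 76.9 to 87.7% for the difference, 73.8 to 45% between genotypes without PCN and 34.9 to 5.02% with it. On the signal normalized here, with no fold limit, 5064, 1445, 329, 104 and 1871 genes passed in these comparisons against 1302, 481, 221, 65 and 441.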
